A study of Mus musculus with 6 samples.

Results

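The 8 genes described here mark CD8 T cells and the T cells that act in an innate-like way, and they were chosen by symbol from the 15106 genes of a count table on T cells sorted from mouse skin. They are Cd8a, Cd8b1, Cd163l1, Blk, Sox13, Zbtb16, Fcer1g and Tyrobp, and all 8 were found in the table. The table holds 4 libraries of regulatory T cells (Tregs, the suppressive T cells that depend on the transcription factor FOXP3), named Treg 1 to Treg 4, and 2 libraries of effector T cells (Teffs), named Teff 1 and Teff 2. Both groups were sorted from the skin of mice aged 6 weeks that carry a FOXP3-GFP reporter, a green fluorescent protein that marks cells expressing FOXP3, and no library came from mice without the reporter. The labels do not give the surface markers of either sorting gate, so whether CD8 or gamma-delta T cells could enter the Teff gate is not stated. Nor do they state if each library is its own animal or a pool of animals, and p-values therefore measure only the spread between these libraries, which may be technical.

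CD8 is the co-receptor of T cells that recognise peptides on MHC class I, and on conventional CD8 T cells it is a pair of an alpha and a beta chain. Mature T cells normally keep either CD4 or CD8, and skin Tregs are CD4 T cells. Mouse skin also holds gamma-delta T cells and other T cells that respond quickly, without long priming, and that share genes with natural killer (NK) cells and myeloid cells. FcR gamma and DAP12, the products of Fcer1g and Tyrobp, are small adaptors with an ITAM, a tyrosine motif that recruits kinases, and are best known from myeloid cells, mast cells and NK cells.

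Counts in genes came to 5582022 to 7046685 in the Treg libraries and to 7468778 and 4902126 in Teff 1 and Teff 2, and 3 counts corresponded to 0.427 to 0.539 CPM (counts scaled to the library size) in a Treg library and to 0.396 and 0.579 CPM in Teff 1 and Teff 2. A Treg library had counts in 9602 to 12605 genes, against 13197 and 11894 genes in Teff 1 and Teff 2. In CPM, Foxp3 stood at 103, 232, 154 and 182 from Treg 1 to Treg 4, against 11.2 and 7.15 CPM in Teff 1 and Teff 2, so every library matched its label. Cd3e, a chain of the T cell receptor complex, was at 553 to 1221 CPM in the Treg libraries, against 1286 and 1107 CPM in the Teff libraries, and all 9 listed T cell markers had counts in every library. Transcripts of other skin cells were also present: Treg 3 carried 841 CPM of keratinocyte markers and 1988 CPM of fibroblast markers, and Treg 4 carried the highest sums of macrophage and dendritic cell markers, given with the adaptor genes. Endothelial markers summed to at most 68.5 CPM in a Treg library, against 84.7 and 121 CPM in the Teff libraries, and melanocyte markers to 52.9 to 84.1 CPM, against 45.9 and 72.2 CPM. Pecam1 alone made 82.1 and 121 CPM of the endothelial sums in Teff 1 and Teff 2, with Cdh5 at 2.64 and 0 CPM. Pmel was the only melanocyte marker with counts in Treg 1, Treg 2, Treg 4 and Teff 2. These sums thus rest mostly on 1 gene each and do not by themselves show cells of these types. The 6 listed Treg markers summed to 7052 to 11050 CPM in the Treg libraries, against 615 and 419 CPM in the Teff libraries.

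All 8 genes had a lower mean CPM in Tregs than in Teffs, and they formed 3 patterns. Cd163l1, Blk, Sox13 and Zbtb16 had no counts in any Treg library, as did 7.68% of all genes. Cd8a and Cd8b1 were present in both groups, with every Treg library below both Teff libraries. Fcer1g and Tyrobp were present in all 6 libraries and overlapped between groups, with Treg 4 above both Teff libraries for each. Summed over the 8 genes, the libraries held 14.7, 30.1, 41.8 and 247 CPM in Treg 1 to Treg 4, against 233 and 227 CPM in Teff 1 and Teff 2. Treg 4 was thus the sole Treg library with a sum at the level of the Teffs, but its make-up differed. It held 97.8 and 83.8 CPM of Fcer1g and Tyrobp, above both Teff libraries. Its Cd8a and Cd8b1, at 43.0 and 22.5 CPM, were below both, and Cd163l1, Blk, Sox13 and Zbtb16 were at 0.

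**Figure D1:**
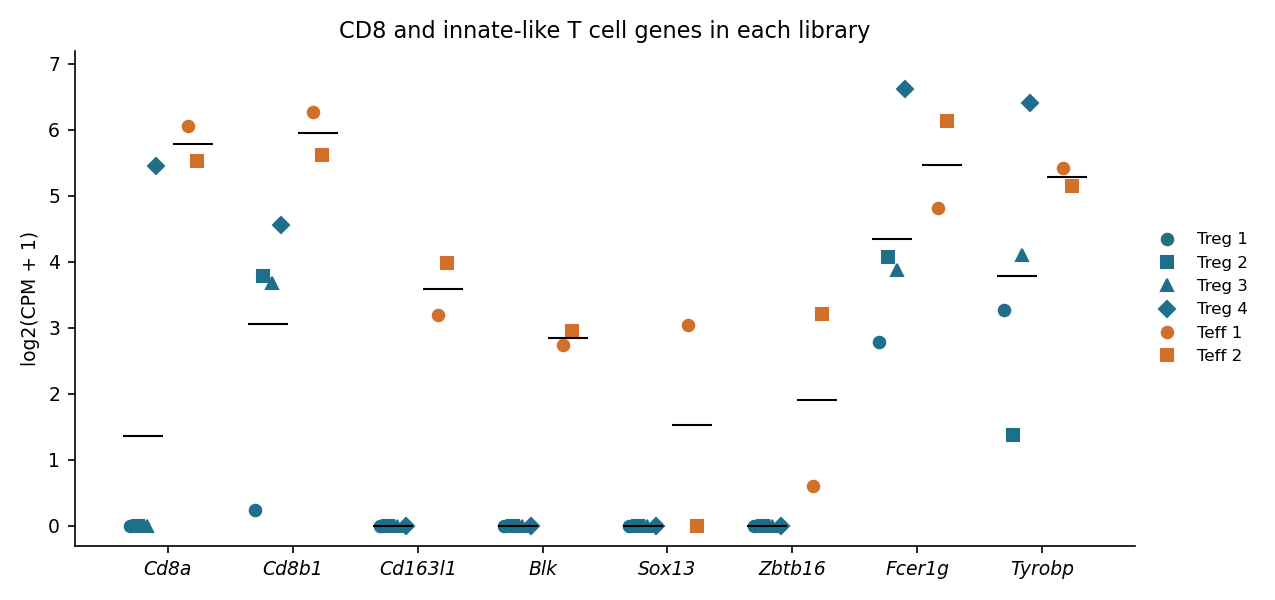
Each point is a library, on the scale log2(CPM + 1), with the 4 Treg libraries in blue left of the 2 Teff libraries in orange, and bars mark group means on that scale. Treg 4 (diamond) is the highest Treg library for Cd8a, Cd8b1, Fcer1g and Tyrobp, while Cd163l1, Blk, Sox13 and Zbtb16 are at 0 in all 4 Treg libraries.

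None of the 8 genes passed the test between groups. A filter on low counts (filterByExpr, smallest count 10) kept 6 of them, and Sox13 and Zbtb16 did not pass it. In edgeR's quasi-likelihood test with Benjamini-Hochberg adjustment over 11775 genes, 0 of these 6 were called at an adjusted p under 0.05, where 0.0425% of all tested genes were called in either direction. At an unadjusted p under 0.05 there were 2, Cd163l1 and Blk, both lower in Tregs, where 4.73% of all tested genes passed in either direction and 2.31% were lower in Tregs. Both have no counts in Tregs and passed the filter only through the Teff libraries, so their direction was fixed by how they entered the test, and these p-values carry no weight of their own. With a filter on the mean CPM over all libraries instead, 4 of the 8 were tested, Cd163l1 and Blk not among them, and 0 passed at an unadjusted p under 0.05. DESeq2 called 0 of them, against 1.78% of the genes to which it gave an adjusted p. Unadjusted, DESeq2 had 1 under 0.05, Cd163l1 at 0.0161. Groups did not overlap, with Tregs lower, for 5 of the 8 genes (Cd8a, Cd8b1, Cd163l1, Blk and Zbtb16), against 9.06% of all 15106 genes. Cd163l1, Blk and Zbtb16 have no counts in Tregs, so any counts in both Teff libraries set the groups apart. For Zbtb16 this rests on 4 counts in Teff 1. The 8 genes were chosen with earlier results of these data known, so their share is no test. Foxp3, used above to check the labels, was not called by edgeR either (log2 fold change 4.19, edgeR adjusted p = 0.131). A gene that edgeR did not call here may therefore still differ between groups. In these bulk samples fewer cells of a type and less RNA per cell cannot be told apart.

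Levels were compared between the genes as CPM per kilobase of exon. In Teffs the order of the levels was Tyrobp at 57.1 ± 7.90, Fcer1g at 55.0 ± 33.8, Cd8b1 at 42.0 ± 13.3, Cd8a at 15.2 ± 4.05, Cd163l1 at 2.99 ± 1.23, Blk at 2.30 ± 0.285, Sox13 at 0.842 ± 1.19 and Zbtb16 at 0.836 ± 1.04 CPM per kb (SD, n = 2). The ranges of neighbours in this order did not overlap between Cd8b1 and Cd8a, between Cd8a and Cd163l1, and between Blk and Sox13, and they overlapped for the other neighbours. In Tregs the order was Tyrobp at 41.3 ± 56.9, Fcer1g at 38.1 ± 49.5, Cd8b1 at 7.97 ± 6.15 and Cd8a at 2.95 ± 5.90 CPM per kb (SD, n = 4), followed by the 4 genes at 0. All neighbours among the first 4 overlapped in Tregs.

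The upstream sequences of a gene from each pattern are shown to give the start region behind the counts: Cd8a for the co-receptor genes, Cd163l1 for the genes without counts in Tregs and Fcer1g for the adaptors. RefSeq (GRCm38.p6) had an entry for 4 of the 8 genes, these and Sox13. Each window is the 250 bases before the annotated start, read 5′ to 3′ on the gene's strand, at chr6:71373177-71373426 (plus strand) for Cd8a, chr7:140218017-140218266 (plus strand) for Cd163l1 and chr1:171234350-171234599 (minus strand) for Fcer1g. Capitals mark matches, on either strand, to 5 short motifs: TGTGGT (RUNX), AACAAT (SOX), AGGTCA (the half-site of ROR factors), CCGGAA (ETS) and CANNTG (E-box).
Cd8a: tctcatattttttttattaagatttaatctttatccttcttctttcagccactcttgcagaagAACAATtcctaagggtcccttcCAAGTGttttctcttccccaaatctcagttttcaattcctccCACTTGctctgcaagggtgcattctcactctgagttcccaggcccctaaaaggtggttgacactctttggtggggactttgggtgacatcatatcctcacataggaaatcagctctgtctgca
Cd163l1: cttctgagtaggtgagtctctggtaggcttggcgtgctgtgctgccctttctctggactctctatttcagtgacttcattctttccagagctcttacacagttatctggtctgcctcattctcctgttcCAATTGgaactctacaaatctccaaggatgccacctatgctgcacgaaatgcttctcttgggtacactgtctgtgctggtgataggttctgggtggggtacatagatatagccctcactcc
Fcer1g: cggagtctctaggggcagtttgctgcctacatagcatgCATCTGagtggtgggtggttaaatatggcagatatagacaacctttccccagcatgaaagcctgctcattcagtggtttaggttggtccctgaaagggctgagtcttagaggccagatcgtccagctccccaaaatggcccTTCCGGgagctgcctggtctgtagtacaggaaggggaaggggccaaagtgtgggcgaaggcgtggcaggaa
The Cd8a window held 1 SOX match, 187 bases before the start, and 2 E-boxes, at 165 and 123 bases. The Cd163l1 window held 1 E-box, at 121 bases. The Fcer1g window held 1 ETS match, at 71 bases, and 1 E-box, at 212 bases. Among 32851 promoter windows of the same length, 66.2% held an E-box, 14.1% the RUNX letters, 9.42% the SOX letters, 14.02% the ROR letters and 12.03% the ETS letters. A match describes the letters alone, and no binding was measured.

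The CD8 co-receptor genes were lower in every Treg library than in both Teff libraries, without passing the test. Cd8a encodes the alpha chain of CD8 and lies on chromosome 6, from 71373427 to 71379173 (GRCm38). Treg 1 to Treg 4 held 0, 0, 0 and 42.95 CPM of Cd8a, against 65.85 and 45.0 CPM in Teff 1 and Teff 2. In raw counts, Treg 4 held 302 and the other Treg libraries 0, against 499 and 233 in the Teff libraries. Cd8a was thus not detected in 3 Treg libraries at this depth and close to Teff 2 in the fourth. The group means were 10.7 ± 21.5 CPM in Tregs (SD, n = 4) and 55.4 ± 14.7 CPM in Teffs (SD, n = 2), with a log2 fold change of -2.36 ± 2.53 (SE; edgeR unadjusted p = 0.377, adjusted p = 1.0).

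Treg 4 held all Cd8a counts of the Treg group. Without it no Cd8a count was left in Tregs, so a comparison without Treg 4 is set by that choice and is given no p. A floor of 3 counts over the other 3 Treg libraries puts them at least 336-fold below Teffs. A presence in Treg 4 and in no other Treg library was seen for 3.21% of all genes.

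Cd8b1 encodes the beta chain, which conventional CD8 T cells carry together with the alpha chain. It lies 35.9 kb before Cd8a on the same strand, from 71322788 to 71337494. Treg 1 to Treg 4 held 0.180, 12.8, 11.9 and 22.5 CPM of Cd8b1, against 76.1 and 48.3 CPM in Teff 1 and Teff 2. Treg 1 held a single count, and the other 3 Treg libraries held 68 to 158. The mean was 11.8 ± 9.13 CPM in Tregs (SD, n = 4) and 62.2 ± 19.7 CPM in Teffs (SD, n = 2), with a log2 fold change of -2.39 ± 1.38 (SE; edgeR unadjusted p = 0.121, adjusted p = 1.0). Treg 2 and Treg 3 therefore had Cd8b1 counts (80 and 68) and no Cd8a counts, whereas the ratio of the 2 genes was near 1 in the Teff libraries, at 577 and 250 Cd8b1 counts beside 499 and 233 Cd8a counts. Treg 4 differed from both, with fewer Cd8b1 counts (158) than Cd8a counts (302). Of the 50-base stretches of the annotated Cd8b1 transcripts, 6.28% also occur in transcripts of other genes, against 0.0815% for Cd8a.

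Set against Cd4, the co-receptor of helper T cells and Tregs, the CD8 genes were lower in every Treg library than in both Teff libraries, without passing the test. Cd4 itself overlapped between groups, with CPM of 625, 456, 291 and 452 from Treg 1 to Treg 4, against 731 and 572 CPM in Teff 1 and Teff 2. Per 100 Cd4 counts there were 0.0288, 2.80, 4.08 and 14.5 counts of Cd8a and Cd8b1 together in Treg 1 to Treg 4, against 19.4 and 16.3 in Teff 1 and Teff 2. Treg 4 lay just under Teff 2, and the other Treg libraries lay far below. The mean ratio was 5.34 ± 6.32 in Tregs (SD, n = 4) and 17.9 ± 2.22 in Teffs (SD, n = 2). The log2 ratio (with 0.5 added to each sum) differed by -3.44, Treg minus Teff, with an exact two-sided permutation p of 0.2 over the 15 arrangements of the libraries, which cannot go below 0.0667. The difference was -1.69 without Treg 1, which held a single CD8 count, and -4.49 without Treg 4 (exact p = 0.2 and 0.3). The ratio needs no scaling between libraries.

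**Figure D2:**
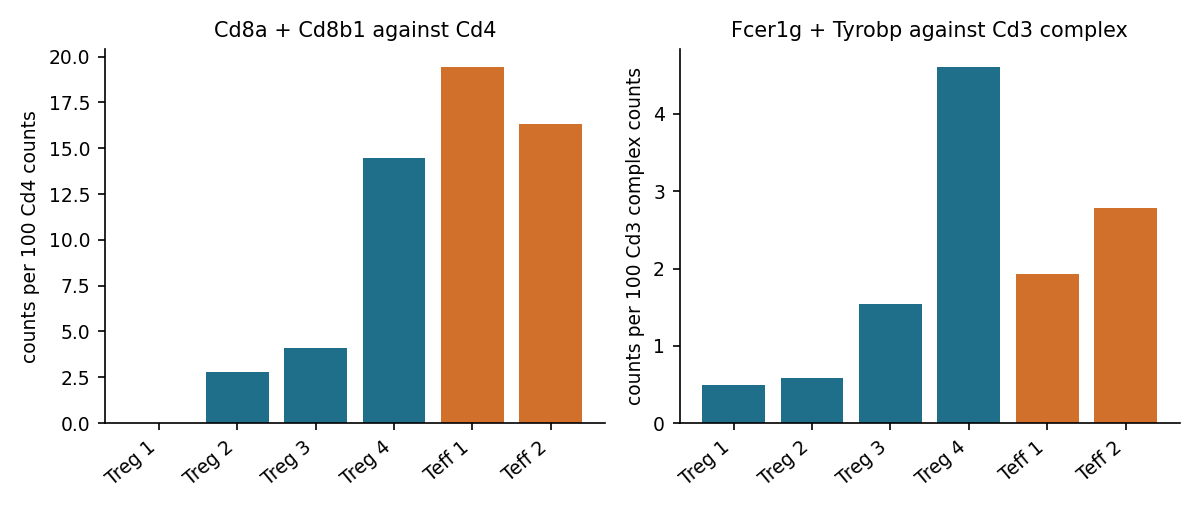
Bars give, for each library, the counts of Cd8a and Cd8b1 per 100 Cd4 counts (left) and of Fcer1g and Tyrobp per 100 counts of the Cd3 complex genes (right), with Treg libraries in blue and Teff libraries in orange. Treg 4 reaches 14.5 on the left, below both Teff libraries, and 4.61 on the right, above both.

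Of the 13 genes of a CD8 lineage list found in the table, 11 were tested, and 0 rose and 0 fell in edgeR, the test behind this count for each list. Their log2 fold changes were negative for 8 and positive for 3, with a median of -1.71, against 0.07 over all tested genes. The list holds Cd8a and Cd8b1 and was chosen with earlier results of these data known, so this median is no separate result. Ccl5, a chemokine of activated cytotoxic T cells, was at 17.8 to 109 CPM in the Treg libraries, against 199 and 234 CPM in the Teff libraries. Runx3, a transcription factor that secures the CD8 fate, was at 51.4 to 256 CPM in the Treg libraries, against 175 and 279 CPM, and overlapped. Itgae, the integrin chain CD103 of T cells lodged in epithelium, lay on the other side, at 1195 to 2627 CPM in the Treg libraries, against 835 and 1108 CPM in the Teff libraries (log2 fold change 0.97 ± 0.39, edgeR adjusted p = 0.938). DESeq2 called 1 gene of the list, Gzma, the granzyme A of cytotoxic cells, as lower in Tregs. The CD4 lineage list had 6 tested genes, of which 0 rose and 0 fell, with a median log2 fold change of -0.48, and DESeq2 called Tox higher and Cd40lg lower. Zbtb7b, the factor ThPOK that fixes the CD4 fate and was picked after its values were seen, ranged over 8.81 to 35.1 CPM in Tregs, against 33.9 and 30.3 CPM in Teffs.

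The 3 genes tied to gamma-delta T cells (Cd163l1, Blk and Sox13) had counts in Teffs and none in Tregs. Cd163l1 encodes SCART1, a scavenger receptor of gamma-delta T cells, and lies on chromosome 7, from 140218267 to 140231145. It had 0 counts in each of the 4 Treg libraries, against 62 and 77 counts, or 8.18 and 14.9 CPM, in Teff 1 and Teff 2. Both Teff libraries were well above the 3 counts taken as a floor. Over the pooled groups, Cd163l1 was at least 89.3-fold lower in Tregs, with 3 counts over all Treg libraries as the floor.

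Blk encodes a kinase of the Src family that is best known from B cells and is also used by gamma-delta T cells that make interleukin 17. It lies on chromosome 14, from 63372836 to 63417037. It had 0 counts in each Treg library, against 43 and 35 counts, or 5.67 and 6.76 CPM, in Teff 1 and Teff 2. It was at least 50.1-fold lower in Tregs on the same floor. The edgeR adjusted p was 0.721 for both Cd163l1 and Blk. No counts in any Treg library together with counts in both Teff libraries, as for Cd163l1, Blk and Zbtb16, were seen for 1.79% of all genes. Because Blk is also a B cell gene, B cell markers are given beside it: of the 6 listed markers in the table, 1 to 4 had counts in a Treg library, summing to 3.67 to 148 CPM, against 5 and 3 in Teff 1 and Teff 2, summing to 29.2 and 21.4 CPM. In Treg 3, which had the highest sum, Ebf1 alone made 144 CPM. Ebf1 was at 0 in the other Treg libraries, against 4.49 and 0 CPM in Teff 1 and Teff 2. Cd79b had 28.2, 0, 0.524 and 40.8 CPM from Treg 1 to Treg 4, against 12.1 and 10.6 CPM. Ms4a1 had 2.80 CPM in Treg 3 and 8.97 CPM in Teff 1, with none elsewhere. The sums thus rest on different genes in different libraries. Cd79a, a signalling chain of the B cell receptor picked after its values were seen, had 0, 3.67, 0.524 and 0 CPM from Treg 1 to Treg 4, against 2.24 and 1.93 CPM in Teff 1 and Teff 2. The part of B cell transcripts in the Blk counts was not tested.

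Sox13 encodes a transcription factor that marks and directs the gamma-delta lineage from the thymus on. It lies on chromosome 1, from 133382303 to 133424377. All of its 55 counts were in Teff 1 (7.26 CPM), with 0 counts in Teff 2 and in each Treg library. The gene thus rests on 1 library, and its level in Teff 2 was below 0.579 CPM, the value of 3 counts. Sox5, a relative of Sox13 in the SoxD group, was likewise found in Teff 1 alone, at 6.60 CPM, and Sox4, another factor of the gamma-delta lineage, had 10.5 CPM in Treg 3, against 6.73 CPM in Teff 1, with none elsewhere. Teff 1 also held more keratinocyte and fibroblast marker transcripts than Teff 2 (132 against 42.9 CPM and 176 against 3.86 CPM), and their part in the Sox13 counts was not tested.

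Zbtb16 encodes PLZF, the zinc finger factor that gives natural killer T cells and some gamma-delta T cells their innate-like behaviour. It lies on chromosome 9, from 48654297 to 48836222. It had 0 counts in each Treg library, against 4 and 43 counts, or 0.528 and 8.31 CPM, in Teff 1 and Teff 2. The Teff libraries were uneven, and Teff 2 held nearly all counts. With the floor at 3 counts over all Treg libraries, Sox13 was at least 35.3-fold and Zbtb16 at least 30.2-fold lower in Tregs than in the pooled Teff libraries. The fold of Sox13 rests wholly on Teff 1, since Teff 2 held 0 counts like the Treg libraries. The fold of Zbtb16 rests mostly on Teff 2.

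Other genes of gamma-delta and innate-like T cells were compared from lists. Of the 17 gamma-delta genes in the table, 16 were tested, and 0 rose and 0 fell (median log2 fold change -0.69, with 11 negative and 5 positive). The list held antigen receptor segments of gamma-delta T cells, which are not analysed here. Over the 16, every Treg library lay above both Teff libraries for 4 and below both for 6 (Cd163l1, Blk, Il23r, 5830411N06Rik, Il17a and Il17f), against 5.52% and 9.49% of all tested genes. Of these 6, Cd163l1, Blk and Il17f had no counts in Tregs and Il23r had 1 count. They passed the filter only through the Teff libraries, so their direction was fixed by how they entered the test. Cd163l1 and Blk also belong to the 8 genes, and the share of the list is therefore no separate result. The 4 most abundant genes of the list outside the 8 were Icos, Sh2d2a, Maf and Ccr6. Other T cells can also express these 4, and the same holds for Il23r, Il17a and Il17f. For 3 of the 4, Icos, Maf and Ccr6, every Treg library lay above both Teff libraries, and the edgeR adjusted p was 0.321 for Ccr6 and 0.721 for Icos and Maf. DESeq2 called these 3 higher and Il17f lower in Tregs. The table's 5830411N06Rik, listed by RefSeq as Scart2 and lying 16.1 kb after Cd163l1, held 0, 0, 0 and 32.4 CPM from Treg 1 to Treg 4, against 120 and 145 CPM in Teff 1 and Teff 2. It repeated the pattern of Cd8a, with Treg 4 as the sole Treg library with counts, and shared no stretch of 50 bases with Cd163l1 or any other annotated transcript. It was named after its values were seen, as were Il17a and Il17f, which encode interleukin 17 cytokines. Il17f had no counts in Tregs, against 58.6 and 11.2 CPM in Teff 1 and Teff 2, and Il17a was at 4.69 CPM in Treg 4 and 0 in the other Treg libraries, against 13.6 and 12.8 CPM.

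Of the 20 genes of the innate-like list that holds Zbtb16, 18 were tested, and 0 rose and 0 fell (median log2 fold change -1.47, with 13 negative and 5 positive). Every Treg library lay below both Teff libraries for 9 of the 18, against 9.49% of all tested genes, and above both for 1. The list was chosen with earlier results of these data known, so this share is no separate result. Nkg7, a cytotoxic granule protein, was at 88.4 to 236 CPM in Tregs, against 1295 and 1504 CPM in Teffs (log2 fold change -3.03 ± 0.40, edgeR adjusted p = 0.0890). DESeq2 called 2 genes of the list lower in Tregs, Nkg7 and Ifng, which encodes interferon gamma. Il18r1, a chain of the interleukin 18 receptor, was at 72.6 to 260 CPM in Tregs, against 572 and 532 CPM in Teffs. Slamf1 and Il2rb overlapped between groups. Nkg7, Ifng and Il18r1 are likewise not limited to innate-like T cells. Among the Src family kinases, 7 of 8 were tested, and 0 rose and 0 fell. Lyn, a kinase of myeloid and B cells that acts on ITAMs, had the opposite order to Blk: it stood at 59.7 to 199 CPM in Tregs, against 11.1 and 10.4 CPM in Teffs (log2 fold change 3.56 ± 0.70, edgeR adjusted p = 0.283), and DESeq2 called it higher. Lck, the main kinase of T cell receptor signalling, was at 1095 to 2168 CPM in Tregs, against 2482 and 3008 CPM. A single gene of the SoxD and SoxC list, Sox4, was tested, with 0 calls, and of 11 tested BTB zinc finger genes 0 rose and 0 fell (median 0.02), while DESeq2 called 1 of them, Zbtb32, higher.

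The ITAM adaptor genes had means that differed by less than the spread between Treg libraries. Fcer1g encodes the FcR gamma chain, which carries the signal of several Fc and lectin-like receptors, and lies on chromosome 1, from 171229572 to 171234365. Treg 1 to Treg 4 held 5.93, 15.8, 13.6 and 97.8 CPM of Fcer1g, against 27.2 and 69.0 CPM in Teff 1 and Teff 2. Treg 1 to Treg 3 lay below both Teff libraries and Treg 4 above both. The mean was 33.3 ± 43.2 CPM in Tregs (SD, n = 4) and 48.1 ± 29.5 CPM in Teffs (SD, n = 2), with a log2 fold change of -0.53 ± 1.21 (SE; edgeR unadjusted p = 0.674, adjusted p = 1.0). Without Teff 2 the sign turned, to 0.28.

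Tyrobp encodes DAP12, the adaptor of activating receptors on myeloid and NK cells, and lies on chromosome 7, from 30413760 to 30417585. Treg 1 to Treg 4 held 8.63, 1.60, 16.3 and 83.8 CPM of Tyrobp, against 41.8 and 34.4 CPM in Teff 1 and Teff 2. The same order held as for Fcer1g, with Treg 4 above both Teff libraries and the other Treg libraries below them. The mean was 27.6 ± 37.9 CPM in Tregs (SD, n = 4) and 38.1 ± 5.27 CPM in Teffs (SD, n = 2), with a log2 fold change of -0.47 ± 1.41 (SE; edgeR unadjusted p = 0.748, adjusted p = 1.0). Treg 4 held 76.6% of all Treg counts of Fcer1g and 79.6% of those of Tyrobp, and it was the highest Treg library for 19.9% of all genes.

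Without Treg 4, the log2 fold changes were -2.04 for Fcer1g and -2.11 for Tyrobp (edgeR unadjusted p = 0.117 and 0.175, adjusted p = 1.0 for both). The Treg means were then 11.8 ± 5.18 CPM for Fcer1g and 8.83 ± 7.33 CPM for Tyrobp (SD, n = 3). Per 100 counts of the Cd3 complex genes, the signalling chains of the T cell receptor (Cd3d, Cd3e, Cd3g and Cd247), there were 0.499, 0.579, 1.54 and 4.61 counts of both adaptors in Treg 1 to Treg 4, against 1.92 and 2.78 in Teff 1 and Teff 2. The log2 ratio differed by -0.95, Treg minus Teff, with an exact two-sided permutation p of 0.467, and by -1.59 without Treg 4 (exact p = 0.2).

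**Figure D3:**
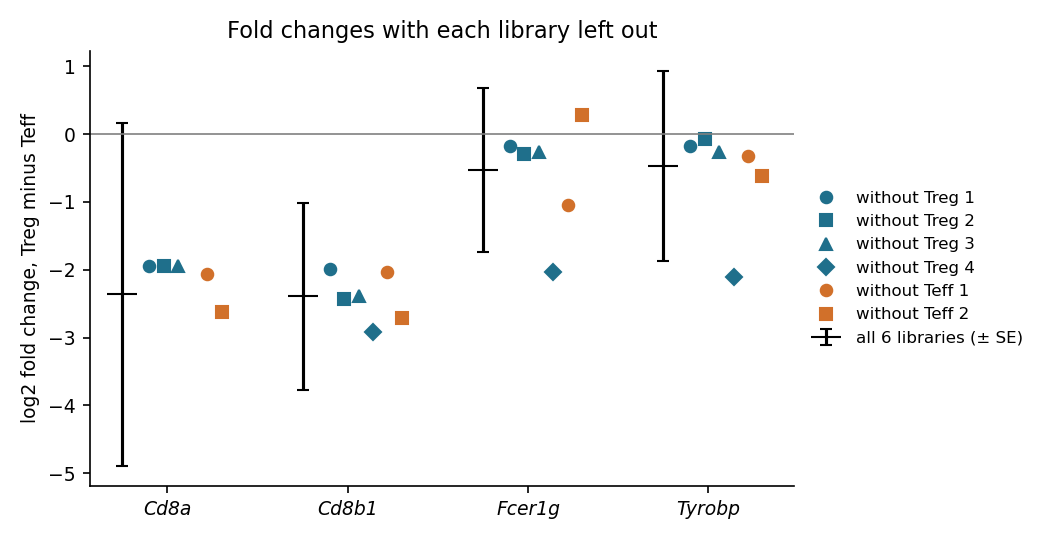
The black bars give the edgeR log2 fold change, Treg minus Teff, from all 6 libraries with its standard error, and the points give it with 1 library left out. Fcer1g and Tyrobp move from near 0 to about -2 (-2.04 and -2.11) without Treg 4, and the point of Cd8a without Treg 4 is not drawn, since no Cd8a count remains in Tregs.

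The summed markers of myeloid cells were, like the adaptors, highest in Treg 4, but single markers did not all share this order. Of the 13 macrophage and monocyte markers in the table, 6, 5, 10 and 11 had counts in Treg 1 to Treg 4, with sums of 171, 200, 204 and 629 CPM, against 10 and 9 in Teff 1 and Teff 2, with sums of 312 and 257 CPM. Lyz2, the lysozyme of macrophages and granulocytes, was at 65.4 to 463 CPM in Tregs, the highest value in Treg 4, against 185 and 136 CPM in Teffs. Csf1r, the growth factor receptor of macrophages, had 77.85, 0, 33.0 and 0.711 CPM from Treg 1 to Treg 4, against 31.5 and 15.8 CPM in Teff 1 and Teff 2, and was thus nearly absent from Treg 4. Mrc1, the mannose receptor, was at 47.4 CPM in Treg 4 and at 4.47 to 16.1 CPM in the other Treg libraries, against 11.9 and 50.4 CPM in the Teff libraries. The next 3 were picked after their values were seen. Cd68, a lysosomal protein of macrophages, was lower in every Treg library, at 19.4, 0, 11.0 and 17.9 CPM, than in Teff 1 and Teff 2, at 44.1 and 36.1 CPM. Emr1, the macrophage protein F4/80, was at 43.5 CPM in Treg 4 and at 0 in the other Treg libraries, against 13.5 and 0.193 CPM in the Teff libraries. Itgam, the integrin chain CD11b, was at 17.5 CPM in Treg 4 and at 0 in the other Treg libraries, against 13.6 and 7.53 CPM. The 10 Langerhans and dendritic cell markers in the table summed to 3030, 2548, 621 and 9801 CPM in Treg 1 to Treg 4, with 7, 6, 5 and 9 of them found, against 1666 and 5303 CPM in Teff 1 and Teff 2, with 8 and 6 found. Most of this was Cd74, the invariant chain of MHC class II, at 7107 CPM in Treg 4, against 954 and 3269 CPM in the Teff libraries. H2-Ab1, a chain of MHC class II, was at 650 CPM in Treg 4, against 353 and 876 CPM. Itgax, the dendritic cell integrin chain CD11c, picked likewise, was at 24.6 CPM in Treg 4 and at 0 in the other Treg libraries, against 2.77 and 0 CPM. The part of myeloid transcripts in the levels of Fcer1g and Tyrobp was not tested.

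**Figure D4:**
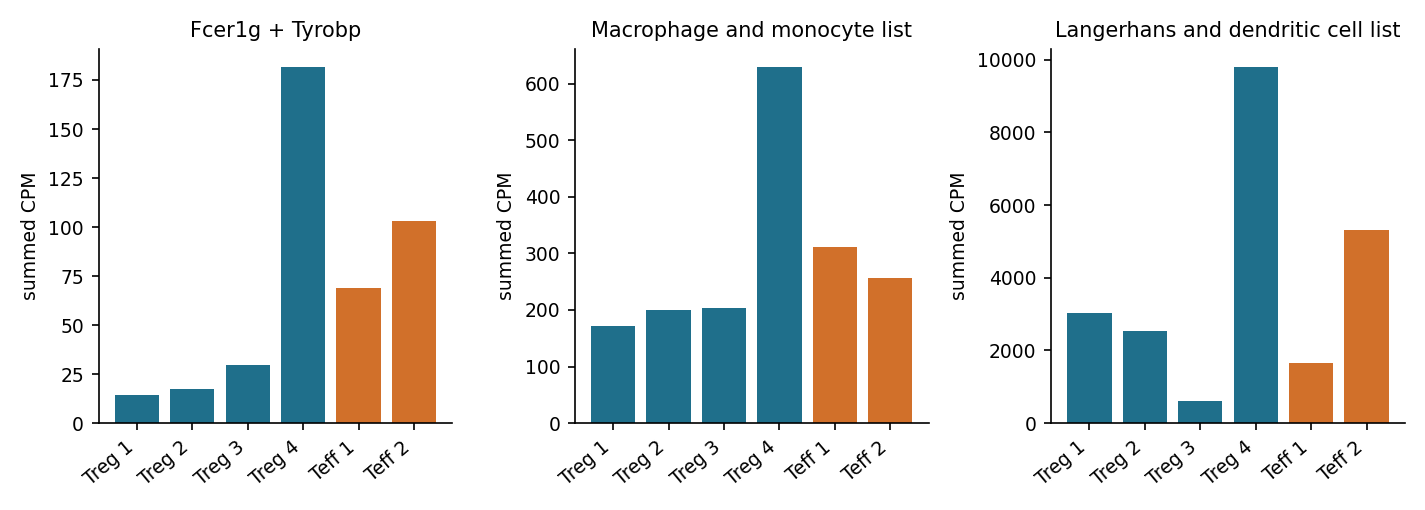
Bars give summed CPM in each library for Fcer1g and Tyrobp (left), for 13 macrophage and monocyte markers (middle) and for 10 Langerhans and dendritic cell markers (right), with Treg libraries in blue and Teff libraries in orange. Treg 4 is the highest library in each panel, at 629 CPM for the middle list and 9801 CPM for the right one.

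NK cell and innate lymphoid markers were sparse. Of the 5 in the table, 0, 0, 1 and 2 had counts in Treg 1 to Treg 4, summing to at most 33.4 CPM, against 4 and 3 in Teff 1 and Teff 2, summing to 9.90 and 15.5 CPM. Ncr1, a defining NK cell marker, was at 0 in every library but Teff 2 (8.69 CPM). Klrb1c, the receptor NK1.1, was at 23.9 CPM in Treg 4, against 1.58 and 0 CPM in Teff 1 and Teff 2. Both mast cell markers in the table were low, summing to at most 26.0 CPM in a Treg library, against 6.07 and 6.18 CPM. The neutrophil markers summed to at most 7.51 CPM in any library.

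The partners of the adaptors did not pass the edgeR test either. Of 18 genes in the list of ITAM adaptors and their kinases all 18 were tested, and 0 rose and 0 fell, with 13 negative and 5 positive log2 fold changes (median -0.50), while DESeq2 called Lyn and Lat2 higher and Lat lower. Hcst, Zap70 and Syk were picked after their values were seen. Hcst, which encodes the related adaptor DAP10, was at 39.7 to 131 CPM in Tregs, against 186 and 248 CPM in Teffs. Zap70, the kinase that binds ITAMs in T cells, was at 81.6 to 192 CPM in Tregs, against 312 and 318 CPM in Teffs. Syk, its counterpart in myeloid and B cells, was at 1.75 CPM or less in the Treg libraries, against 14.9 and 0 CPM in Teff 1 and Teff 2. Of the 18 receptors in the table that pair with FcR gamma or DAP12, 8 were tested, and 0 rose and 0 fell (median -0.57, with 4 negative and 4 positive). Klrk1, the receptor NKG2D, was at 0 to 20.7 CPM in Tregs, against 126 and 141 CPM in Teffs (log2 fold change -3.94 ± 1.44, edgeR adjusted p = 0.801). Klrb1f, a lectin-like receptor gene of NK and T cells, had 0.478 CPM in Treg 2 and 0 in the other Treg libraries. It was at 35.8 and 55.8 CPM in Teff 1 and Teff 2, and was the 1 gene of its list that DESeq2 called, as lower. With 3 counts over all Treg libraries, Klrb1f passed the filter only through the Teff libraries. Its direction was thus fixed by how it entered the test.

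Genes with the profile most like each of the 8 were found by the root mean square difference of centred log2(CPM + 1) values over the 6 libraries, among tested genes. Nearest to Cd8a were Bub1b (0.280) and Aurkb (0.428), both of mitosis, and Lonrf3 (0.526). Nearest to Cd8b1 were Thap7 (0.285), Smpd2 (0.477) and Wbp1 (0.493). Nearest to Cd163l1 were Abhd15 (0.101), Samd3 (0.116) and Igsf6 (0.121), and nearest to Blk were Tmem143 (0.0384), Ift57 (0.0976) and Pla2g4c (0.102), which share the absence, or near absence, of counts in Tregs. Zbtb16 lay nearest to Disc1 (0.329), Miat (0.423) and Zscan22 (0.426), and Fcer1g to Tomm40 (0.174), Dnajc17 (0.403) and Pstpip2 (0.405). Tyrobp lay nearest to Ipmk (0.323), Slx1b (0.373) and Cd209a (0.410), of which Cd209a, the lectin CD209a of dendritic cells, was at 255 CPM in Treg 4, against 73.2 and 99.1 CPM in the Teff libraries. Among the 8 genes themselves the closest pair was Cd163l1 and Blk (0.389), and Fcer1g and Tyrobp differed by 1.14. With 6 libraries that share depth and scaling, these values describe the libraries and carry no test.

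In the authors' deposited table, which runs its own comparison with positive values for Tregs, the log2 fold changes were -2.43 for Cd8a, -2.46 for Cd8b1, -9.20 for Cd163l1, -8.31 for Blk, -7.57 for Sox13, -7.80 for Zbtb16, -0.58 for Fcer1g and -0.53 for Tyrobp. None of the 8 reached a false discovery rate under 0.05 in the authors' deposited table, in which 0.285% of all genes did. The lowest rate in the authors' deposited table was 0.929, for Cd163l1. The authors' deposited p-values were 0.0105 for Cd163l1, 0.0251 for Blk and 0.0460 for Zbtb16. At a deposited p under 0.05, 1.69% of all genes were lower in Tregs. As Cd163l1, Blk and Zbtb16 have no counts in any Treg library, their direction could only be lower in Tregs. These deposited p-values therefore carry no weight of their own.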

How the data were processed

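Per the labels' protocols, libraries of the sorted cells were made by the SMARTer low-input method. Per the submitters' processing notes, HTSeq 0.6.1, SAMtools 0.1.19.0, TopHat2 2.0.12, CASAVA 1.8.2 and Bowtie2 2.1.0.0 were used with mm10 (GRCm38). Annotation, strand setting and the authors' own test: not given in the sources used here. For 6 libraries the authors deposited raw counts per gene. They also deposited log2 fold changes, p-values and false discovery rates of their own comparison.

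The 3 rows that name no gene (88.0% to 90.2% of each column) entered neither the library sizes nor any test. The main test was edgeR 4.0.16's quasi-likelihood test in R 4.3.3 on group alone, TMM scaled, with filterByExpr (smallest count 10). CPM use the scaled sizes, and SE is the log2 fold change over the root of its F statistic. The code was tested on simulated data with less spread between libraries than these data. That check does not show how often the test finds a change at the spread seen here. Alternatives were DESeq2 1.42.0, other scalings and filters, a replicate block, and each library left out. Exon lengths and positions came from GENCODE M21 (GRCm38), in which exons of no other gene overlap the 8 genes. Named genes were the 8, the most abundant genes of each list, and nearest profiles (up to 3 tested genes per member with counts in at least 2 libraries). The genes and lists were chosen with earlier results of these data known. Floors allow for counting error in the Treg libraries alone: reads copied by PCR are not separate molecules. The Teff value is taken as observed, so folds given as at least a value do not allow for its error or for spread between libraries.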

Additional observations from a re-analysis of the deposited data

Results flagged for a closer look

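Among the 10 sets of 4 Treg values checked (the 8 genes in CPM and both count ratios), 2 held a library set apart from the other 3 by more than Dixon's 95% critical value. Chance passes this check in about 5% of groups of normally distributed values, which these need not be. Cd163l1, Blk, Sox13 and Zbtb16, at 0 in every Treg library, could not be flagged, and the ratios reuse the counts of the genes. For Cd8a this was Treg 4 at 42.95 CPM, with the other Treg libraries at 0. Any gene with counts in 1 Treg library alone is flagged in this way, so the flag of Cd8a carries no weight of its own. For Fcer1g it was again Treg 4, at 97.8 CPM, with a gap to the next library of 0.893 of the range. Treg 4 also had the highest macrophage and dendritic cell marker sums, and their part was not tested.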

How the results depend on the processing

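None of the 8 genes was called in any of the 12 alternative fits, in which the lowest adjusted p among them was 0.380. Of 70 log2 fold changes of the 6 tested genes under an alternative, 69 kept their sign, and Fcer1g without Teff 2 turned to 0.28 (the cause was not tested). Over the fits that left out 1 library, values ran from -2.92 to -1.99 for Cd8b1, from -2.04 to 0.28 for Fcer1g and from -2.11 to -0.07 for Tyrobp. All 16 other values of the count ratios kept their sign. Leaving out 1 library gave -4.49 to -1.69 for CD8 over Cd4, and -1.59 to -0.53 for the adaptors over the Cd3 complex. Cd8a alone over Cd4 gave -6.52. Treg 4 was the sole Treg library with Cd8a counts, so the size of this value rests mostly on the 0.5 added to each sum. The count of all genes called was 5 as reported, 183 with DESeq2 (140 higher, 43 lower), 19 without a filter, 15 with the replicate block, and 0 to 2 with 1 library left out, and the cause of these changes was not tested. The replicate numbers were not taken as pairs: deviations from the group means correlated at -0.0417 for the libraries numbered 1 and 0.155 for those numbered 2, and the block gave -11.41 for Cd8a (unadjusted p = 0.0109, adjusted p = 0.603), where Treg 3 and Treg 4 have no partner and the paired Tregs hold 0 Cd8a counts. DESeq2 gave Cd8a no p. Depth limits the 4 genes without Treg counts, at 47 to 139 counts over both Teff libraries, and 3 counts are worth 0.396 to 0.579 CPM in a library.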
